A study of Homo sapiens with 18 samples.

Results

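The ETS-family transcription factor EHF was overexpressed in 2 established head and neck squamous carcinoma (HNSCC) cell lines, and the change of every gene in SCC25 was set against its change in A253. Each line's RNA-seq counts were joined gene by gene, and the difference between the 2 changes (the interaction of cell line and overexpression) was tested across all genes. The 10 libraries of these lines, out of 18 samples in the series, fell into 4 groups: SCC25 EHF OE (2 libraries), SCC25 control (2 libraries), A253 EHF OE (3 libraries) and A253 control (3 libraries). EHF OE cells received 1 ug doxycycline to switch on EHF, and control cells grew in regular medium without it. Doxycycline and EHF overexpression therefore cannot be told apart in either line. SCC25 came from a tongue carcinoma and was grown in DMEM/F12. A253 came from a submandibular salivary gland carcinoma, and a McCoy's medium is listed with no line named beside it. Cell line, medium and any batch between the lines cannot be told apart. The sources used here do not give the vector, its promoter, the number of clones, or whether control cells carried an empty vector. They also do not say that replicates were separate cultures, so p-values measure only the spread between these libraries.

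EHF is expressed mainly in epithelia, where it sits with ELF3 and ELF5 in a subfamily of ETS factors. ETS proteins bind DNA through a winged helix that reads a GGAA core, and many family members can occupy the same sites. In stratified epithelium EHF is linked to keratinocyte differentiation, and in glandular epithelium to secretory and mucosal genes. A difference in response between lines can be read from a gene only where it is expressed enough to be counted in both.

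Library totals were 10728569 and 15089689 counts in SCC25 EHF OE, 15965279 and 14811169 in SCC25 control, 13749668 to 17823293 in A253 EHF OE and 11090976 to 17715344 in A253 control. Of 23710 genes, 15460 passed the filter on low counts. Log2 expression correlated at 0.9925 to 0.9945 between libraries of a group. By chi-square over genes, divided by its degrees of freedom, the SCC25 EHF OE libraries differed most from each other, at 16.9. The value was 2.99 in SCC25 control, 5.13 to 7.64 in A253 EHF OE and 2.82 to 9.43 in A253 control. By correlation they did not differ most, with 0.9928 against 0.9925 between A253 control replicates 2 and 3. All 12 squamous epithelial markers were expressed in both lines, including KRT5, KRT14 and TP63. All 12 salivary acinar markers, among them AMY1A, AQP5 and MUC7, averaged under 1 CPM in every group, A253 included.

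EHF itself stood at 877 and 922 CPM (counts scaled to a common library total) in SCC25 EHF OE and at 477 and 434 CPM in SCC25 control. It stood at 754, 697 and 617 CPM in A253 EHF OE and at 82.8, 89.6 and 81.2 CPM in A253 control. No overexpression library overlapped the controls of its line, and the overexpressing A253 libraries also lay above the SCC25 controls. EHF rose 1.97-fold in SCC25 (log2 change 0.98, SE 0.084, adjusted p = 1.89e-07) and 8.15-fold in A253 (log2 change 3.03, SE 0.074, adjusted p = 9.18e-16; edgeR's quasi-likelihood test with Benjamini-Hochberg adjustment, as for every adjusted p here). The difference between these log2 changes was -2.05 (SE 0.11, adjusted p = 5.56e-10). The lines differed more in control than in overexpressing cells: SCC25 control held 5.39 times the EHF of A253 control, whereas SCC25 EHF OE held 1.30 times that of A253 EHF OE. In absolute terms overexpression added 443 CPM in SCC25 and 605 CPM in A253. The counts do not separate the introduced EHF from the cell's own.

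The count of changed genes was higher in SCC25 with all libraries and lower there whenever 1 SCC25 library was left out. In SCC25, 1872 of 15460 genes passed an adjusted p of 0.05 (12.1%), 888 of them higher (5.74%) and 984 lower (6.36%). The change reached 2-fold for 169 of them (1.09%). In A253, 1487 genes passed (9.62%), 921 higher (5.96%) and 566 lower (3.66%). It reached 2-fold for 178 (1.15%). The interaction passed for 871 genes (5.63%), with the SCC25 change more positive for 369 (2.39%) and the A253 change more positive for 502 (3.25%). For 127 of these (0.821%) the changes differed at least 2-fold. Before adjustment 3072 genes had an interaction p under 0.05. The number of interaction genes fell to 556 without SCC25 control replicate 1, 318 without SCC25 control replicate 2, 326 without SCC25 EHF OE replicate 1 and 429 without SCC25 EHF OE replicate 2, where the lone remaining library is assumed to vary like the other groups. DESeq2 called 529. The SCC25 and A253 counts were 1052 and 1351 without SCC25 control replicate 1, 599 and 1351 without SCC25 control replicate 2, 739 and 1320 without SCC25 EHF OE replicate 1, and 784 and 1320 without SCC25 EHF OE replicate 2. Without A253 control replicate 1 they were 1706 and 968. The direction of most interaction calls turned as well: 180 of 318 lay towards SCC25 without SCC25 control replicate 2, and 185 of 326 without SCC25 EHF OE replicate 1.

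Most interaction genes had passed the threshold in 1 line. Of the 369 genes with the more positive change in SCC25, 183 rose in SCC25 without passing in A253, 99 fell in A253 without passing in SCC25, 35 rose in SCC25 and fell in A253, 24 rose in both, and 28 passed in neither line. Of the 502 with the more positive change in A253, 257 fell in SCC25 without passing in A253, 162 rose in A253 without passing in SCC25, 27 rose in both (EHF among them), 13 fell in SCC25 and rose in A253, 3 fell in both, and 40 passed in neither. A pass in 1 line alone was mostly not accompanied by an interaction call: 440 of the 1435 genes called in SCC25 alone had one, and 261 of the 1050 called in A253 alone. Across the 15459 genes other than EHF, the changes in the 2 lines correlated at Pearson's r = 0.211 (Spearman's rho = 0.151), and 54.6% had the same sign. Among the 2921 genes past the threshold in either line r was 0.403. These are descriptions across genes, which are not independent replicates.

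**Figure D1:**
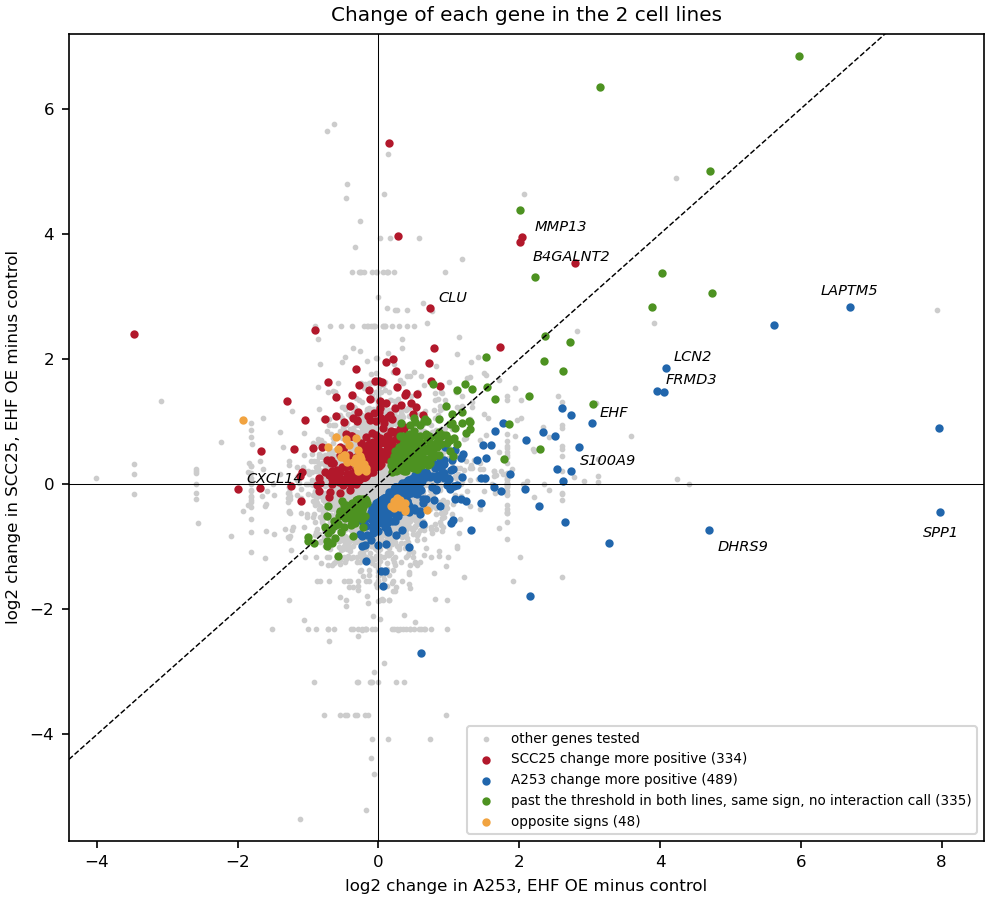
Log2 change (EHF OE minus control) of each of the 15460 tested genes in A253 (x axis) and SCC25 (y axis), with colours for genes past the interaction threshold, genes past the threshold in both lines with opposite signs, and genes past it in both lines with the same sign and no interaction call. SPP1, DHRS9 and LAPTM5 lie far to the right of the dashed line of equal change, and MMP13, B4GALNT2 and CLU lie above it. Rows and columns of grey points at equal values are genes with few counts in 1 line.

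Genes named for size had at least 10 counts per library on average in each line, over EHF OE and control together. Naming also required that EHF OE and control libraries did not overlap in the line with the larger change. Among such genes, the largest differences towards SCC25 were in CLU, FBP1, MMP13, CXCL14, B4GALNT2, CNGB1, LOC100507032 and EDN1. CLU, which encodes the secreted chaperone clusterin, stood at 298 and 275 CPM in SCC25 EHF OE and 41.3 and 40.0 CPM in SCC25 control, and at 66.96, 83.9 and 88.0 CPM in A253 EHF OE and 47.4, 45.7 and 50.5 CPM in A253 control. Controls of the lines were close to each other, and overexpression libraries lay above controls in both. CLU rose 7.06-fold in SCC25 (log2 change 2.82, SE 0.11) and 1.67-fold in A253 (log2 change 0.74, SE 0.086), a log2 difference of 2.08 (SE 0.13, adjusted p = 4.91e-07). MMP13, the collagenase that cleaves fibrillar collagen, reached 2235 and 1998 CPM in SCC25 EHF OE, against 147 and 128 CPM in SCC25 control. In A253 it reached 236, 249 and 279 CPM in EHF OE, against 63.3, 60.7 and 62.6 CPM in control. It rose in both lines, 15.4-fold in SCC25 and 4.10-fold in A253, and the log2 difference was 1.91 (SE 0.11, adjusted p = 9.93e-10). B4GALNT2, which makes the Sda carbohydrate antigen, followed the same order, with 64.6 and 62.7 CPM in SCC25 EHF OE, 4.74 and 3.91 CPM in SCC25 control, 8.56, 8.14 and 8.81 CPM in A253 EHF OE and 2.54, 1.93 and 1.67 CPM in A253 control. Its rise was 14.6-fold in SCC25 and 4.05-fold in A253 (log2 difference 1.85, SE 0.21, adjusted p = 1.72e-05).

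Other genes of this direction moved in SCC25 without passing in A253. EDN1, the precursor of the peptide endothelin-1, stood at 18.7 and 19.0 CPM in SCC25 EHF OE and 6.40 and 6.85 CPM in SCC25 control. In A253 its EHF OE libraries (4.49, 4.80 and 6.16 CPM) overlapped the controls (4.68, 6.40 and 5.81 CPM). The change was 2.84-fold in SCC25, the log2 change in A253 was -0.13 (adjusted p = 0.707), and the log2 difference was 1.64 (adjusted p = 1.13e-04). FBP1, a gluconeogenic phosphatase, rose 2.61-fold in SCC25 to 30.4 and 33.6 CPM, against 13.3 and 11.2 CPM in control, and lay between 0.421 and 1.13 CPM in all A253 libraries. CNGB1, a subunit of a cyclic nucleotide-gated channel, rose 3.85-fold in SCC25 to 50.1 and 50.5 CPM, against 12.03 and 14.1 CPM in control, and was at or under 1.22 CPM in A253. LOC100507032, a transcript without an assigned role, rose 3.99-fold in SCC25 (adjusted p of the difference 0.00147). CXCL14, a chemokine made by epithelia, was named here because it fell in A253. It stood at 21.8 and 21.2 CPM in SCC25 EHF OE and 21.4 and 24.1 CPM in SCC25 control, groups that overlap, and at 1.54, 1.26 and 0.931 CPM in A253 EHF OE against 4.34, 5.07 and 5.72 CPM in A253 control. The log2 change was -0.081 in SCC25 (adjusted p = 0.754) and -1.99 in A253 (adjusted p = 2.67e-07).

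The largest differences towards A253 were in SPP1, DHRS9, LAPTM5, S100A9, FRMD3, FSIP2, LCN2 and GNG11. SPP1, LAPTM5, LCN2 and FSIP2 met the minimum of 10 counts in A253 only through EHF OE. The A253 control libraries together held 3, 2, 15 and 29 counts of them, in the same order. The fitted sizes of these genes therefore depend on few control counts. SPP1, which encodes the secreted phosphoprotein osteopontin, stood at 2.02 and 2.68 CPM in SCC25 EHF OE and 2.56 and 3.98 CPM in SCC25 control. In A253 it stood at 18.7, 18.2 and 17.5 CPM in EHF OE and 0.113, 0.0552 and 0 CPM in control. The SCC25 groups overlapped, while every A253 EHF OE library lay above all SCC25 libraries and A253 control held almost no counts. The A253 libraries held 843 SPP1 counts with EHF OE and 3 in control, a library-scaled ratio of 285 (exact 95% interval 97.3 to 1386, counting error only). The log2 change in SCC25 was -0.44 (adjusted p = 0.300), and the log2 difference was -8.41 (adjusted p = 4.93e-10), a fitted size that depends on how so few control counts are handled. DHRS9, a short-chain dehydrogenase that acts on retinol, showed 0.577 and 0.825 CPM in SCC25 EHF OE and 0.960 and 1.47 CPM in SCC25 control. In A253 it showed 22.5, 20.2 and 22.7 CPM in EHF OE, against 0.451, 0.938 and 1.23 CPM in control. Its log2 change in SCC25 was -0.73 (adjusted p = 0.296), its rise in A253 was 26.0-fold, and the log2 difference was -5.43 (SE 0.49, adjusted p = 9.58e-07).

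LAPTM5, a lysosomal membrane protein best known from leukocytes, rose in both lines. It stood at 33.2 and 35.0 CPM in SCC25 EHF OE and 4.99 and 4.61 CPM in SCC25 control, and at 4.28, 5.90 and 5.44 CPM in A253 EHF OE and 0.113, 0 and 0 CPM in A253 control. Overexpressing A253 libraries reached about the level of SCC25 control. The rise was 7.10-fold in SCC25, and in A253 245 counts stood against 2, a scaled ratio of 124 (exact 95% interval 34.1 to 1033). The 11 leukocyte markers summed to 664.1 to 675.5 CPM in SCC25 EHF OE and 653.0 to 691.2 CPM in SCC25 control, and to 173.9 to 186.1 CPM in A253 EHF OE and 123.6 to 129.3 CPM in A253 control. Of these 11, 7 averaged under 1 CPM in every group, among them PTPRC, CD3D and CD3E, and MS4A1 and TYROBP had no counts. The other 4 were CD68, CD14, LCP1 and ITGAM. CD68 averaged 166.6 CPM in A253 EHF OE and 119.9 CPM in A253 control, CD14 averaged 7.275 and 2.718 CPM in the same order, and LCP1 averaged 406.6 CPM in SCC25 EHF OE and 411.3 CPM in SCC25 control. The part of such cells in the result was not tested. S100A9, a subunit of the antimicrobial protein calprotectin, stood at 528 and 599.5 CPM in SCC25 EHF OE and 508 and 468 CPM in SCC25 control, against 58.3, 51.8 and 53.0 CPM in A253 EHF OE and 8.51, 7.28 and 8.71 CPM in A253 control. Both SCC25 groups lay far above A253. The A253 groups did not overlap, which the naming rule required. Its log2 change in SCC25 was 0.21 (adjusted p = 0.0872), it rose 6.69-fold in A253, and the log2 difference was -2.53 (SE 0.12, adjusted p = 4.11e-11). LCN2, the siderophore-binding lipocalin, rose in both lines. It reached 91.6 and 98.1 CPM in SCC25 EHF OE, against 26.8 and 25.4 CPM in SCC25 control, and 5.05, 5.19 and 6.30 CPM in A253 EHF OE, against 0.225, 0.552 and 0.0880 CPM in A253 control. In folds the rise was 3.63 in SCC25 and 16.9 in A253, although overexpressing A253 cells stayed below SCC25 control (log2 difference -2.22, SE 0.31, adjusted p = 2.88e-04).

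FRMD3, a FERM-domain protein, rose 2.82-fold in SCC25 and 15.6-fold in A253, to 15.9 and 19.2 CPM in SCC25 EHF OE and 20.6, 23.9 and 19.98 CPM in A253 EHF OE. GNG11, a G-protein gamma subunit, stood between 3.46 and 4.16 CPM in all SCC25 libraries and rose 3.33-fold in A253 to 26.1, 20.1 and 27.4 CPM, against 7.72, 6.89 and 7.39 CPM in A253 control. FSIP2, known from the sperm fibrous sheath, had a log2 change of 0.59 in SCC25 (adjusted p = 0.0503) and rose 7.23-fold in A253. All 16 genes named for the largest differences kept their interaction call when each library was left out in turn.

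**Figure D2:**
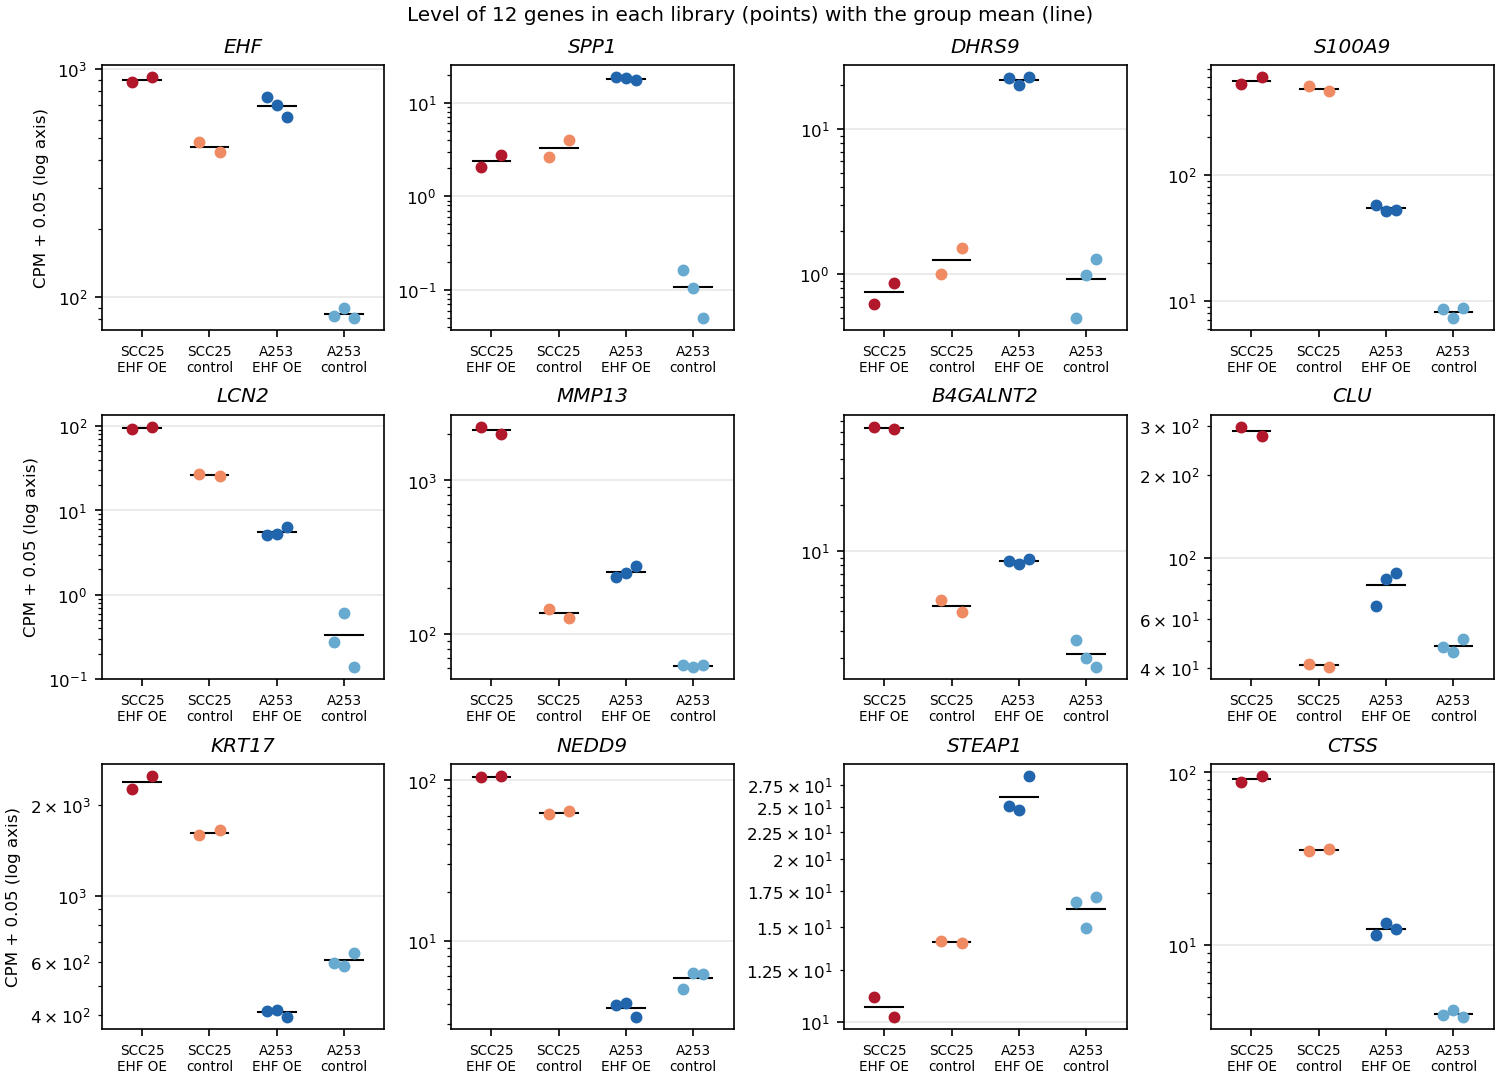
CPM plus 0.05 on a log axis for 12 genes in each library (points) with group means (lines), in the order SCC25 EHF OE, SCC25 control, A253 EHF OE and A253 control. EHF rises in both lines from unequal control levels, and SPP1 and DHRS9 rise in A253 alone. KRT17 and NEDD9 move up in SCC25 and down in A253, and CTSS moves up in both.

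For 48 genes (0.31% of those tested) both lines passed the threshold with opposite signs and the interaction passed too. In 35 of these the gene rose in SCC25 and fell in A253, and in 13 it fell in SCC25 and rose in A253. NEDD9, a focal adhesion scaffold that works in cell migration, stood at 105 and 106 CPM in SCC25 EHF OE and 61.7 and 64.4 CPM in SCC25 control, against 3.93, 4.04 and 3.29 CPM in A253 EHF OE and 4.96, 6.23 and 6.16 CPM in A253 control. It rose 1.68-fold in SCC25 (adjusted p = 5.95e-06) and fell in A253, with a log2 change of -0.61 (adjusted p = 0.00213). KRT17, a keratin of basal and activated keratinocytes, stood at 2272 and 2496 CPM in SCC25 EHF OE and 1591 and 1652 CPM in SCC25 control. In A253 it stood at 414, 416 and 394 CPM in EHF OE and 598, 582 and 645 CPM in control. The groups did not overlap in either line, and the log2 changes were 0.56 in SCC25 (adjusted p = 2.20e-05) and -0.58 in A253 (adjusted p = 6.75e-07). KRT17 has close pseudogene copies, so its count may include reads of these. PRODH, the first enzyme of proline breakdown, moved by 0.46 in SCC25 and -0.49 in A253 on the log2 scale. COL18A1, a basement membrane collagen, moved by 0.46 in SCC25 and -0.48 in A253. SNORA49, a small nucleolar RNA that an mRNA library catches poorly, moved by 0.59 in SCC25 and -0.72 in A253.

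In the reverse direction STEAP1, a membrane protein of a metalloreductase family, stood at 11.1 and 10.2 CPM in SCC25 EHF OE and 14.1 and 14.0 CPM in SCC25 control, against 25.1, 24.6 and 28.4 CPM in A253 EHF OE and 16.6, 14.9 and 17.0 CPM in A253 control. All groups of a line were separate, with log2 changes of -0.41 in SCC25 (adjusted p = 0.0338) and 0.69 in A253 (adjusted p = 1.29e-05). The log2 changes of MT1X, a metal-binding metallothionein with near-identical paralogs, were -0.40 in SCC25 and 0.37 in A253. Those of POPDC3, a Popeye-domain membrane protein, were -0.43 and 0.37 in the same order. ATP5G1, which encodes subunit c of mitochondrial ATP synthase, moved by -0.36 in SCC25 and 0.31 in A253. DCPS, which hydrolyses caps left by mRNA decay, moved by -0.30 and 0.37. Among the 10 genes named here, both opposite calls held for NEDD9 and KRT17 under every setting tried. The other 8 lost the call in SCC25 when 1 SCC25 library or more was left out, and the count of opposite genes fell to 11 without SCC25 control replicate 2, 20 without SCC25 EHF OE replicate 1, 22 without SCC25 EHF OE replicate 2, 26 without SCC25 control replicate 1, 25 without A253 control replicate 1 and 31 without A253 EHF OE replicate 3. DESeq2 called 25.

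Other than EHF, 388 genes passed in both lines with the same sign, 301 rising and 87 falling (389 with EHF, 2.52% of those tested). An interaction call was made for 53 of the 388, of which 27 changed more in SCC25 and 26 more in A253. By absolute log2 change, 209 of the 388 were larger in SCC25 and 179 in A253, whereas EHF's own log2 change in SCC25 was 0.324 of that in A253. Divided by the log2 change of EHF in the same line, 383 of the 388 were larger in SCC25 and 5 in A253, an order that the division by a smaller EHF change in SCC25 favours by construction. Leaving out 1 SCC25 library gave 216 to 247 shared genes, EHF included. CTSS, the lysosomal protease cathepsin S, which processes antigens, stood at 88.1 and 94.97 CPM in SCC25 EHF OE and 35.1 and 36.2 CPM in SCC25 control, against 11.4, 13.4 and 12.4 CPM in A253 EHF OE and 3.89, 4.14 and 3.78 CPM in A253 control. It rose 2.57-fold in SCC25 and 3.14-fold in A253 (log2 difference -0.29, 95% interval -0.57 to -0.0092, adjusted p = 0.234). MMP7, the epithelial protease matrilysin, rose 3.90-fold in SCC25 and 5.08-fold in A253 (log2 difference -0.38, 95% interval -1.08 to 0.32). NDRG2, a stress- and differentiation-associated protein, rose 2.93-fold and 2.92-fold in the same order (log2 difference 0.0086, 95% interval -0.28 to 0.30). The intervals of SLC16A12, a membrane transporter, and TMPRSS11E, a membrane serine protease, ran from -0.55 to 0.56 and from -0.012 to 0.77. The interval of CTSS lay just below 0, without passing after adjustment, and those of the other 4 included 0. Each gives the range of differences that the libraries allow.

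Promoter letters were examined for the GGAA core that ETS proteins read, in the 250 bases before each RefSeq gene start (GRCh38.p14). The letters GGAAGT and CCGGAAG were searched on both strands, and the pair share bases where CCGGAAG is followed by T. A window was found for 11710 of the 15460 tested genes, 929 of them through an older symbol. Below are the windows of 5 genes described above that hold a match, with the match in capitals: 3 of the 8 genes with the largest differences towards A253, 1 with opposite changes and 1 that rose in both lines. SPP1 lies on the plus strand at chr4:87975464-87975713, LAPTM5 on the minus strand at chr1:30757775-30758024, S100A9 on the plus strand at chr1:153357604-153357853, NEDD9 on the minus strand at chr6:11382349-11382598 and MMP7 on the minus strand at chr11:102530748-102530997. Each is written 5′ to 3′ along its gene.
SPP1: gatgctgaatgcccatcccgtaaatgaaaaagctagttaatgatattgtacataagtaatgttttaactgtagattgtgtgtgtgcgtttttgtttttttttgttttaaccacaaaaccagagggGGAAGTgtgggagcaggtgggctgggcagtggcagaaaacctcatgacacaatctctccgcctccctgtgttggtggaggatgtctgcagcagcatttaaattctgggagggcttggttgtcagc
LAPTM5: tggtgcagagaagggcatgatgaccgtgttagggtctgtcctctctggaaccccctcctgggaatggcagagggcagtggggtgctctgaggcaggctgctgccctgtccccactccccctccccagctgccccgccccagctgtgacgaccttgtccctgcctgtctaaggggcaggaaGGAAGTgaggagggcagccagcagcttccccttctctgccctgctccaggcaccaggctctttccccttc
S100A9: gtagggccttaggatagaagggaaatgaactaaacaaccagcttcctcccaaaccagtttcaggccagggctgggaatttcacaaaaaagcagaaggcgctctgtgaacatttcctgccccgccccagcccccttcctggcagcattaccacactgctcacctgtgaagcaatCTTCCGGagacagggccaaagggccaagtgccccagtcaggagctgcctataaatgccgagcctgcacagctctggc
NEDD9: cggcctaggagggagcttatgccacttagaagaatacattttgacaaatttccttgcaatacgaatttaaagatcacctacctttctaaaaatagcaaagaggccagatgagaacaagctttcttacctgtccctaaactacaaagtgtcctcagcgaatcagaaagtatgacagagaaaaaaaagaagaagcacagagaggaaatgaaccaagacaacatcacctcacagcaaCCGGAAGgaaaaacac
MMP7: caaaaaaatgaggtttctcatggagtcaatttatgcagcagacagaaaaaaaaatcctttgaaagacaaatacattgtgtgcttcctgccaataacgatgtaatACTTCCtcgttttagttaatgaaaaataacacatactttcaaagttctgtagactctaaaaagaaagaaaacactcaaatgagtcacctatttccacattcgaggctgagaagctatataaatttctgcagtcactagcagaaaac

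SPP1 and LAPTM5 hold GGAAGT in the gene's own direction, 125 and 70 bases before the start. S100A9 holds CCGGAAG on the opposite strand, 77 bases before it. NEDD9 holds CCGGAAG 16 bases before the start, and MMP7 holds GGAAGT on the opposite strand 146 bases before it. None of the 5 windows found among the 8 genes with the largest differences towards SCC25 held either string. The share of all tested windows that hold either string was not computed. These few windows and the 3 of 8 towards A253 therefore show no difference between the directions. Over whole classes, 17.5% of windows held GGAAGT and 5.26% held CCGGAAG where the SCC25 change was more positive, and 23.8% and 11% where the A253 change was more positive. All tested genes gave 22.8% and 14.7%, and all 27305 RefSeq windows gave 19.9% and 8.82%. Genes that rose in both lines gave 18.7% and 4.57%. A match describes letters in this window and does not show binding.

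The gene lists compared next are described by how many tested members passed and by their median, beside all tested genes (369 and 502 of 15460 with the more positive change in SCC25 and in A253, median log2 difference -0.017). The calls among genes of stratified squamous epithelium lay towards SCC25. Of 31 tested genes of the cornified envelope and terminal differentiation, 4 had the more positive change in SCC25 and none in A253 (median 0.46). In SCC25 6 of them rose and 1 fell, and in A253 1 rose and 5 fell. The 6 rises became 3 without SCC25 control replicate 2, and the 5 falls 3 with DESeq2. KRT1, a keratin of the suprabasal epidermis, stood at 2.02 and 1.72 CPM in SCC25 EHF OE and 0.832 and 0.979 CPM in SCC25 control, against 0.421, 0.655 and 0.501 CPM in A253 EHF OE and 1.97, 2.37 and 1.76 CPM in A253 control. These are low levels, but the groups of each line were separate, and KRT1 rose in SCC25 (log2 change 1.03) and fell in A253 (-1.93; adjusted p of the difference 3.57e-04). TGM1, the transglutaminase that cross-links the envelope, rose in SCC25 (log2 change 0.41) and fell in A253 (-0.47). KRT4, a keratin of oral and oesophageal mucosa, rose in SCC25 (1.16) and had a log2 change of -0.29 in A253 (adjusted p = 0.435). KRT80 rose in both lines, by 1.64 in SCC25 and 0.74 in A253.

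Of 23 basal keratinocyte and hemidesmosome genes, 5 had the more positive change in SCC25 and none in A253 (median 0.18). In SCC25 9 rose and 1 fell, and in A253 1 rose and 5 fell. The 9 rises became 4 or 5 without any 1 SCC25 library. Besides KRT17 they were LAMB3 and LAMA3, which encode chains of the anchoring laminin, DST, which encodes the hemidesmosomal plakin BPAG1, and KRT15, a basal keratin. LAMB3 rose in SCC25 (log2 change 0.48) and stood at 0.012 in A253, and DST stood at 0.28 in SCC25 and fell in A253 (-0.52). In epithelial adhesion, 4 of 37 genes had the more positive change in SCC25 and 2 in A253 (median 0.12). DSC3 and DSG3, the desmosomal cadherins of squamous epithelium, rose in SCC25 and fell in A253. DSC3 stood at 723 and 708 CPM in SCC25 EHF OE and 616 and 582 CPM in SCC25 control, against 324, 335 and 314 CPM in A253 EHF OE and 378, 421 and 370.3 CPM in A253 control. CDH1, which encodes E-cadherin, rose in SCC25 (0.28) with -0.16 in A253 (adjusted p = 0.125). Towards A253, the matriptase gene ST14 had a log2 change of 0.092 in SCC25 (adjusted p = 0.374) and rose in A253 (0.59) to 75.7, 73.2 and 73.8 CPM, against 49.1, 49.9 and 49.3 CPM in A253 control. The 4 adhesion calls towards SCC25 became 1 without SCC25 control replicate 2 and 2 without SCC25 EHF OE replicate 1.

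A minority of matrix genes and matrix proteases had an interaction call, each towards SCC25. Of 39 mesenchymal and matrix genes, 4 had the more positive change in SCC25 and none in A253 (median 0.24). They were COL3A1 and COL4A1, collagens of interstitium and basement membrane, LOXL2, a collagen cross-linking enzyme, and CALD1, the actin-binding caldesmon. CALD1 rose in SCC25 (0.35) and fell in A253 (-0.44), COL4A1 rose in SCC25 (0.40), and COL3A1 fell in A253 (-0.65). Of 22 matrix metalloproteinases and inhibitors, 5 had the more positive change in SCC25 and none in A253 (median 0.17), and 12 of the 22 log2 differences were above 0. They were the collagenases MMP13 and MMP1, the gelatinase MMP2 and the inhibitors TIMP2 and TIMP3. MMP1 rose in SCC25 (0.54) with -0.20 in A253 (adjusted p = 0.190), and TIMP2 had 0.33 in SCC25 (adjusted p = 0.137) and fell in A253 (-0.67). The summed level of 9 fibroblast markers was 119.0 to 119.4 CPM in SCC25 EHF OE and 99.5 to 111 CPM in SCC25 control. In A253 it was 8.81 to 10.7 CPM in EHF OE and 11.8 to 13.4 CPM in control. The members did not move together in SCC25. COL1A2 (22.23 CPM in EHF OE, 8.357 CPM in control), COL1A1 and COL3A1 were higher in EHF OE. DCN (16.14 and 20.22 CPM), FAP and PDGFRA were lower, and LUM was close (57.91 and 57.12 CPM). PDGFRB and THY1 averaged under 1 CPM in every group. The 7 myoepithelial markers, CALD1 among them, summed to 236 to 249 CPM in SCC25 EHF OE and 180.4 to 180.5 CPM in SCC25 control. In A253 they summed to 74.0 to 79.9 CPM in EHF OE and 95.6 to 100.2 CPM in control. Most of these sums was CALD1 itself, at means of 191.5, 149.7, 48.58 and 66.18 CPM in the same order. The part of such cells in the result was not tested. The matrix count was 1 or 2 without any 1 SCC25 library or A253 control replicate 1, and 7 without A253 control replicate 3. The metalloproteinase count was 2 without SCC25 control replicate 2 and 3 without either SCC25 EHF OE replicate.

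Fewer host defence genes passed than did not, nearly all of those that passed rose, and most interaction calls lay towards A253. Of 27 mucosal host defence genes, 11 rose and none fell in SCC25, while 9 rose and 1 fell in A253. The 11 became 7 without SCC25 control replicate 2 and 6 without SCC25 EHF OE replicate 2. The interaction passed for 5 towards A253 and 1 towards SCC25, although the list's median difference was 0.13. Those towards A253 were S100A9, LCN2, SAA1, SLPI and C3. SAA1, an acute-phase protein, averaged 250.2 CPM in SCC25 EHF OE and 211 CPM in SCC25 control (log2 change 0.25, adjusted p = 0.0845), and rose in A253 (2.53) to a mean of 0.786 CPM in EHF OE, against 0.111 CPM in control. SLPI, a secreted antiprotease, rose in both lines (0.77 in SCC25, 2.51 in A253), and the complement component C3 rose in A253 (1.18). All 5 had higher mean control levels in SCC25 than in A253, as did 51.4% of all genes by control replicate 1. The same controls enter the level and the change, and a link between them was not tested here. AGR2, a disulfide isomerase of secretory cells, went the other way: it fell in A253 (-0.76) to 10.7, 8.24 and 10.8 CPM, against 17.1, 15.6 and 17.3 CPM in A253 control. Its interaction call was lost in 7 of the 10 fits that left out 1 library.

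Many interferon genes and most antigen presentation genes rose in each line. Of 51 type I interferon response genes, 26 rose and none fell in SCC25, and 23 rose and 2 fell in A253. The interaction passed for 7 towards SCC25 (STAT2, BST2, ISG15, DDX60, IFI27, OASL and HERC5) and 4 towards A253 (TRIM22, UBE2L6, PARP12 and IRF1), with a median of 0.15. HERC5, the ligase that attaches ISG15, stood at 18.9 and 19.4 CPM in SCC25 EHF OE and 16.7 and 18.6 CPM in SCC25 control (adjusted p of the SCC25 change 0.512). It fell in A253 to 14.3, 13.7 and 14.8 CPM, against 20.6, 21.2 and 21.3 CPM in A253 control. OASL fell in A253 as well (-0.57). TRIM22, an antiviral ubiquitin ligase, rose in both lines (0.86 in SCC25, 1.66 in A253). IRF1, an activator of interferon genes, rose in both as well (0.59 and 0.94). Of 26 antigen presentation genes, 20 rose in SCC25 and 18 in A253, and none fell in either. HLA-C, HLA-E and HLA-F, which present peptides or bind lymphocyte receptors, and the class II chaperone CD74 differed towards SCC25. The peptide-trimming protease ERAP2 and the proteasome activator PSME2 differed towards A253. HLA-C rose in SCC25 (0.51) with 0.060 in A253 (adjusted p = 0.641); its reads can be shared with other HLA genes. ERAP2 rose in both lines, to 15.4 and 14.0 CPM in SCC25 EHF OE against 10.2 and 12.3 CPM in SCC25 control, and to 181, 190.2 and 191 CPM in A253 EHF OE against 97.1, 97.3 and 101 CPM in A253 control. The 4 interferon calls towards A253 dropped to 1 with DESeq2, 2 with the other scaling, and 1 or 2 in 7 of the 10 fits that left out 1 library. The 7 towards SCC25 dropped to 4 without SCC25 control replicate 1 or SCC25 EHF OE replicate 1. The 26 interferon rises in SCC25 became 15 without either SCC25 control and 12 without SCC25 EHF OE replicate 1, and the 20 of antigen presentation became 12 without SCC25 EHF OE replicate 2.

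NF-kB targets, cytokines and chemokines divided between the lines. Of 34 tested, 6 had the more positive change in A253 and 5 in SCC25 (median -0.19, or -0.27 without 2 genes that have at most 3 counts in a line). Those towards A253 were the NF-kB feedback genes NFKBIA and TNFAIP3, the apoptosis inhibitor BIRC3, and the inflammatory cytokines IL1A, IL8 and CXCL1. All 6 rose in A253. BIRC3 stood at 235 and 262 CPM in SCC25 EHF OE against 238 and 228 CPM in SCC25 control, and at 14.4, 13.4 and 14.9 CPM in A253 EHF OE against 7.04, 6.73 and 7.83 CPM in A253 control. The SCC25 groups overlapped and the A253 groups were separate. CXCL1, a neutrophil-attracting chemokine, fell in SCC25 (-0.38) and rose in A253 (0.23). Those towards SCC25 were CCL28, CCL5, PTGS2, TNFAIP2 and CFLAR, and all 5 rose in SCC25. CCL28, a mucosal chemokine, stood at 9.62 and 8.32 CPM in SCC25 EHF OE and 4.03 and 3.56 CPM in SCC25 control, against 12.7, 14.6 and 16.9 CPM in A253 EHF OE and 17.4, 12.6 and 13.1 CPM in A253 control. PTGS2, the inducible cyclooxygenase, rose in SCC25 (0.62) with -0.13 in A253 (adjusted p = 0.570). The 6 calls towards A253 became 3 without A253 control replicate 1, SCC25 control replicate 1 or either SCC25 EHF OE replicate, and the 5 towards SCC25 became 2 or 3 without SCC25 control replicate 2 or either SCC25 EHF OE replicate and 3 with DESeq2.

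Most tested histone and S phase genes and a minority of mitotic genes fell in SCC25, and few in these lists passed in A253. Of 59 replication-dependent histone genes, 48 fell and none rose in SCC25, while 1 rose and none fell in A253. For 24 the interaction passed, all towards A253, with a median of -0.51 (-0.52 without 11 genes that have at most 3 counts in a line). Those 11 could hardly pass in that line. HIST1H3C stood at 111 and 119 CPM in SCC25 EHF OE and 165 and 189.7 CPM in SCC25 control, against 299, 248 and 303 CPM in A253 EHF OE and 266, 243 and 276 CPM in A253 control. The SCC25 groups were separate and the A253 groups overlapped. Most histone mRNAs lack a poly(A) tail, which an mRNA enrichment may lose, and near-identical copies share reads. Of 51 genes of DNA replication and S phase, 34 fell and none rose in SCC25, while 1 rose and 1 fell in A253. For 17 it passed towards A253 (median -0.30), among them the replicative helicase subunits MCM2, MCM3, MCM5 and MCM7, the sliding clamp PCNA, and the polymerase subunits POLE2, POLA2 and POLD2. MCM2 fell in SCC25 (-0.47) with -0.015 in A253 (adjusted p = 0.934). Of 62 mitotic genes, 26 fell in SCC25 and 2 rose in A253, and the interaction passed for 12 towards A253 (median -0.23), among them the kinases AURKB, BUB1 and BUB1B and the cyclins CCNA2 and CCNB2.

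These calls rest on few SCC25 libraries. The 24 histone calls became 7 without SCC25 control replicate 2, 10 without SCC25 EHF OE replicate 1, 15 without SCC25 EHF OE replicate 2 and 38 without A253 EHF OE replicate 2. The 17 S phase calls became 1 without SCC25 control replicate 2, 1 without SCC25 EHF OE replicate 1, 8 without SCC25 EHF OE replicate 2, 9 without SCC25 control replicate 1, and 10 with DESeq2 and without A253 control replicate 2 or A253 EHF OE replicate 3. The 12 mitotic calls became 1 without SCC25 control replicate 2, 2 without SCC25 EHF OE replicate 1, 4 without SCC25 EHF OE replicate 2, 5 without SCC25 control replicate 1, 6 without A253 control replicate 2, 7 without A253 EHF OE replicate 3 and 5 with DESeq2. The falls in SCC25 alone, 48, 34 and 26 in the 3 lists, became 23, 12 and 5 without SCC25 control replicate 2 and 29, 14 and 7 without SCC25 EHF OE replicate 1. Without SCC25 EHF OE replicate 2 the S phase and mitotic falls were 18 and 13, and the mitotic falls were 14 without SCC25 control replicate 1 and 17 with DESeq2. The medians of the 3 lists stayed below 0 in every one of these fits.

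Most interaction calls among metabolic genes also lay towards A253. Of 76 nuclear genes of oxidative phosphorylation, 10 fell and none rose in SCC25, while 7 rose and none fell in A253. For 10 the interaction passed towards A253, and 74 of the 76 had a log2 difference below 0 (median -0.25). Besides ATP5G1 they included ATP5F1 of ATP synthase, NDUFA6, NDUFA9, NDUFB3 and NDUFV1 of complex I, CYC1 and UQCR10 of complex III, COX7B of complex IV, and cytochrome c (CYCS). The 10 falls in SCC25 became 0 without SCC25 control replicate 2 or SCC25 EHF OE replicate 1 and 2 without SCC25 EHF OE replicate 2. The 7 rises in A253 became 1 without A253 control replicate 2 or A253 EHF OE replicate 3, 3 with DESeq2 and without A253 control replicate 1, 4 without A253 EHF OE replicate 1 and 16 without A253 EHF OE replicate 2. The interaction count became 0 without SCC25 control replicate 2, 2 without SCC25 EHF OE replicate 1, 3 without SCC25 EHF OE replicate 2, 5 without A253 control replicate 2, 16 without A253 control replicate 3 and 24 without A253 EHF OE replicate 2. Of 27 glycolysis genes, 11 fell and 1 rose in SCC25, while 2 rose and 4 fell in A253, and the interaction passed for 6 towards A253 and 1 towards SCC25 (median -0.15). PKM, pyruvate kinase, rose in both lines (0.32 in SCC25, 0.87 in A253), to 3297, 3394 and 3470.1 CPM in A253 EHF OE against 1919, 1743 and 1879 CPM in A253 control. PGK1 fell in SCC25 (-0.22) and rose in A253 (0.26), and ENO1 fell in SCC25 (-0.40). SLC2A1, a glucose importer, had a log2 change of 0.13 in SCC25 (adjusted p = 0.244) and fell in A253 (-0.20). The 11 glycolysis falls in SCC25 became 2 without SCC25 control replicate 2, 1 without SCC25 EHF OE replicate 1 and 6 without SCC25 EHF OE replicate 2. The 4 in A253 became 1 or 2 with DESeq2 and without A253 control replicate 1, A253 control replicate 3 or A253 EHF OE replicate 3. The 6 glycolysis calls became 2 or 3 without SCC25 control replicate 2, SCC25 EHF OE replicate 1, A253 control replicate 2 or A253 EHF OE replicate 3.

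Of 33 genes of cholesterol and fatty acid synthesis, 14 fell and none rose in SCC25, while 1 rose and 2 fell in A253. For 5 the interaction passed towards A253 (median -0.18), among them ELOVL6, a fatty acid elongase, INSIG1, a regulator of cholesterol synthesis, and FDFT1, a sterol enzyme. ELOVL6 stood at 15.3 and 17.1 CPM in SCC25 EHF OE and 25.3 and 25.9 CPM in SCC25 control, against 41.3, 39.0 and 35.6 CPM in A253 EHF OE and 41.5, 41.9 and 38.9 CPM in A253 control. Only the SCC25 groups of ELOVL6 were separate. Of 39 NRF2 targets, 14 fell and 2 rose in SCC25, while 8 fell and 2 rose in A253, and the interaction passed for 6 towards A253 and 1 towards SCC25 (median -0.19). GPX2, a glutathione peroxidase, fell in both lines, to 65.5 and 63.9 CPM in SCC25 EHF OE against 115 and 116 CPM in SCC25 control, and to 99.3, 93.7 and 104 CPM in A253 EHF OE against 112, 109 and 129 CPM in A253 control. FTH1, the ferritin heavy chain, rose in SCC25 (0.34), while FTL, the light chain, rose in A253 (0.22); both have many pseudogenes that may share reads. The 14 lipid falls in SCC25 became 6 without SCC25 control replicate 2, 4 without SCC25 EHF OE replicate 1 and 9 without SCC25 EHF OE replicate 2. The 14 NRF2 falls in SCC25 became 5 without either SCC25 control or SCC25 EHF OE replicate 1, 8 without SCC25 EHF OE replicate 2 and 9 with DESeq2, and the 8 in A253 became 5 without A253 EHF OE replicate 2. Without SCC25 control replicate 2, SCC25 control replicate 1 or SCC25 EHF OE replicate 1 the 6 NRF2 calls became 2 or 3, and the 5 lipid calls became 3 or 2 without SCC25 control replicate 2 or SCC25 EHF OE replicate 1.

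**Figure D3:**
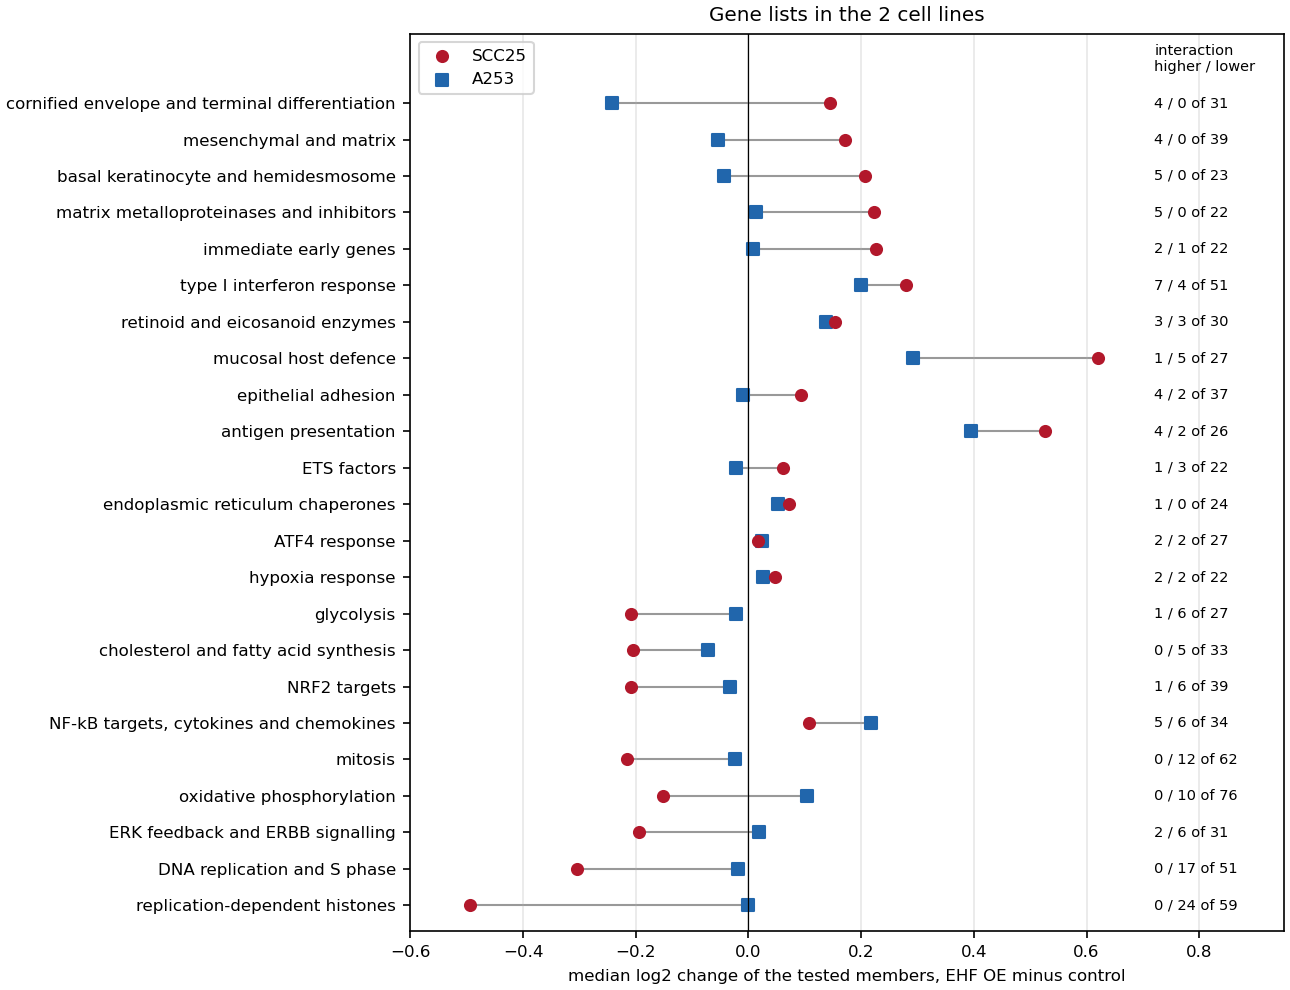
Median log2 change (EHF OE minus control) of the tested members of 23 gene lists in SCC25 (circles) and A253 (squares), with the number of members past the interaction threshold towards SCC25 and towards A253. Histone, S phase, mitosis and oxidative phosphorylation lists lie lower in SCC25, the cornified envelope and matrix lists lie higher there, and the host defence, interferon and antigen presentation lists lie above 0 in both lines.

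Signalling and transcription factor genes gave small counts. Of 31 genes of ERK feedback and ERBB signalling, 6 had the more positive change in A253 and 2 in SCC25 (median -0.25). ETV4 and ETV5, ETS factors that ERK signalling induces, fell in SCC25 (-0.71 and -0.99), and their log2 changes in A253 were 0.12 and -0.23, neither past the threshold. ETV4 stood at 12.2 and 10.4 CPM in SCC25 EHF OE and 18.9 and 17.9 CPM in SCC25 control, against 11.6, 11.2 and 11.7 CPM in A253 EHF OE and 10.2, 10.3 and 11.4 CPM in A253 control. EREG, an EGF receptor ligand, and SPRED1, an ERK inhibitor, fell in SCC25 as well (-0.55 and -0.41). MYC had a log2 change of -0.064 in SCC25 (adjusted p = 0.669) and rose in A253 (0.51). ERRFI1, a feedback inhibitor of EGFR, rose in SCC25 (0.78), but its interaction (adjusted p = 0.049998) was lost under the other scaling and in 6 of the 10 fits that left out 1 library. Of 22 ETS factors, ETS2 was the 1 gene towards SCC25 and EHF, ETV4 and ETV5 the 3 towards A253 (median 0.01, or -0.06 without SCC25 control replicate 2 and -0.02 with no filter). ETS2 stood at 387 and 433 CPM in SCC25 EHF OE and 349 and 344 CPM in SCC25 control, against 73.1, 75.7 and 74.3 CPM in A253 EHF OE and 88.6, 89.6 and 85.0 CPM in A253 control, so it rose in SCC25 and fell in A253.

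The remaining lists had at most 3 interaction calls in a direction. Immediate early genes had 2 towards SCC25 (ATF3 and KLF6) and 1 towards A253 (MYC), with a median of 0.15. ATF3, a stress-induced factor, stood at 17.6 and 18.7 CPM in SCC25 EHF OE and 7.62 and 8.81 CPM in SCC25 control, against 3.37, 2.89 and 2.36 CPM in A253 EHF OE and 3.15, 2.65 and 2.82 CPM in A253 control. Its rise in SCC25 (2.22-fold) was not shared by the ATF4 response list, where 2 genes passed in each direction (ATF3 and SLC38A2 towards SCC25, CTH and PSPH towards A253). Retinoid and eicosanoid enzymes had 3 in each direction, among them DHRS9, the retinaldehyde dehydrogenase ALDH1A3, which rose in both lines (0.21 in SCC25 and 0.57 in A253), and the retinol-binding protein receptor STRA6, with 16 counts in SCC25 EHF OE against 1 in SCC25 control (scaled ratio 19.2, exact 95% interval 2.98 to 805). The hypoxia list had 2 in each direction (ADM and LOXL2 towards SCC25, CA9 and EGLN3 towards A253), and of the chaperones of the endoplasmic reticulum 1 passed (SEL1L, towards SCC25).

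The differences were then set against the level of each gene in control cells. A gene counted in the controls of both lines was the one most often called: of 12532 genes with at least 1 CPM in both controls, 830 passed the interaction (6.62%). Of 820 genes at that level in SCC25 control alone 23 passed (2.8%), of 1075 in A253 control alone 8 passed (0.744%), and of 1033 in neither 10 passed (0.968%). Because control libraries enter both the level and the change, the level was also taken from control replicate 1 and the change from the remaining controls. Then 372 of 12528 genes in both passed (2.97%), 10 of 839 in SCC25 alone (1.19%) and 3 of 1057 in A253 alone (0.284%). Of all 15445 genes with a value 2.53% passed. In both versions a gene with few counts in 1 line can hardly reach an interaction call. The shares of the classes therefore do not separate control level from how well a gene could be tested.

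By the ratio of control levels, calls were most frequent where SCC25 control held over 4 times the level of A253 control. With separate controls, 53 of 853 such genes passed (6.21%), 27 with the more positive change in SCC25 and 26 in A253. Genes within 2-fold of each other passed in 1.98%, genes 2-fold to 4-fold higher in SCC25 control in 3.8%, and genes over 4-fold higher in A253 control in 2.87%. Rises were more frequent among the same genes: 9.73% of those over 4-fold higher in SCC25 control rose in SCC25 and 7.97% rose in A253, against 2.8% and 3.61% of all genes. With all controls in both measures, genes over 4-fold higher in A253 control showed 34 calls towards SCC25 and 8 towards A253, a lean that was 12 against 7 with separate controls. Across 12527 genes with at least 1 CPM in both, the signed difference hardly followed the control ratio (Pearson's r = -0.0178, Spearman's rho = -0.0197). Among the 371 that passed, r was 0.00434 and rho 0.0602. Over all 15444 genes with a value, r was -0.0641 and rho -0.0333. With separate controls, the median log2 difference was 0.141 for genes over 4-fold higher in A253 control. It lay between -0.0195 and 0.00618 in the other classes, and was -0.014 over all genes. The genes over 4-fold higher in A253 control had a median of 0.754 CPM in SCC25 control. These are descriptions over genes that share libraries, normalization and depth.

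**Figure D4:**
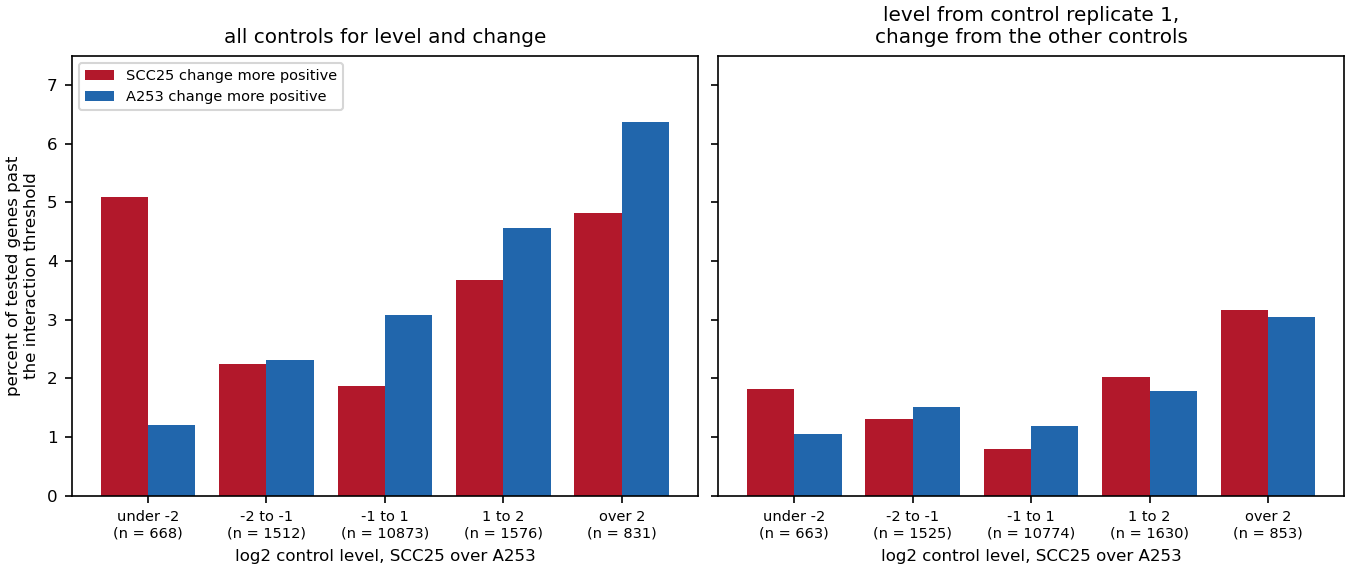
Percent of tested genes past the interaction threshold, split by direction, in 5 classes of the log2 ratio of control levels (SCC25 over A253; number of genes under each class). The left panel uses all controls for level and change, and the right panel takes the level from control replicate 1 and the change from the other controls. In the right panel the class over 2 has the highest bars in both directions.

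Genes that rose were also compared with their level in the other line, again with separate controls. Of 431 genes that rose in SCC25, A253 control was above SCC25 control for 31.8% (48.5% of all genes) and above SCC25 EHF OE for 16.0%. For the 110 with the larger rise in SCC25 by the interaction the shares were 39.1% and 17.3%. Of 557 genes that rose in A253, SCC25 control was above A253 control for 57.6% (51.4% of all genes), and for 40.2% it was still above A253 EHF OE. For the 91 with the larger rise in A253 the shares were 64.8% and 44.0%. No share over all genes was computed for the comparison with EHF OE. The 16.0%, 17.3%, 40.2% and 44.0% therefore cannot be read as a feature of genes that rose. SCC25 control was above A253 EHF OE for S100A9 and LCN2, whereas A253 EHF OE exceeded SCC25 control for SPP1 and DHRS9. EHF itself was higher in SCC25 control than in A253 control but not higher than in A253 EHF OE, which held 1.51 times the EHF of SCC25 control. With 2 lines, the level of EHF in control cells gives 1 pair of values, so a relation between it and the size of the response cannot be tested.

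Some genes passed in 1 line while the other held almost no counts. Of 265 tested genes with at most 3 counts over all A253 libraries, 37 passed in SCC25 (14.0%, against 12.1% of all tested genes), 16 rising and 21 falling. PDZK1IP1, a small membrane protein of epithelia, rose 2.76-fold in SCC25 to 22.5 and 23.2 CPM, against 9.22 and 7.34 CPM in SCC25 control. ETV1, an ETS factor related to ETV4 and ETV5, fell in SCC25 to 2.31 and 1.72 CPM, against 5.63 and 5.38 CPM in SCC25 control. RCSD1, a capping protein regulator of the actin cytoskeleton, rose 3.19-fold in SCC25. Of 191 tested genes with at most 3 counts over all SCC25 libraries, 19 passed in A253 (9.95%, against 9.62% of all tested genes), 13 rising and 6 falling. MX1, an interferon-induced antiviral GTPase, had no counts in any SCC25 library and stood at 16.4, 18.0 and 16.6 CPM in A253 EHF OE against 8.85, 7.83 and 9.15 CPM in A253 control, a 1.99-fold rise. TRPC6, a calcium-permeable channel, fell in A253 to 15.9, 13.7 and 12.1 CPM, against 22.6, 26.4 and 29.2 CPM in A253 control, and KL, the FGF coreceptor klotho, rose 1.93-fold there (adjusted p = 0.00645, or 0.126 with DESeq2). For such genes the interaction rests on almost no counts in the other line, and none of these 6 passed it.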

How the data were processed

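RNA-seq counts of 10 libraries (SCC25 and A253, EHF OE and control) were used, grouped by their labels. The authors deposited 1 table of raw counts per gene and line. Per the submitters' processing notes, TopHat2 2.1.1, featureCounts 1.5.3, Bowtie 1.1.1, DESeq2 1.12.4 and hg19 were used; the strand setting is not given in the sources used here. The deposited TPM tables and the ChIP and input files were not used. The tables were joined by row (23710 genes; 28 names had turned into dates and stayed as they were). The fit used edgeR 4.0.16 (R 4.3.3): filterByExpr kept 15460 genes, TMM set the scaling, and 4 group means in its robust quasi-likelihood fit gave the change in each line and their difference (two-sided tests). P-values were adjusted over all tested genes (threshold 0.05). CPM values are deposited counts scaled to a common TMM-adjusted library total, computed here. Standard errors are the log2 value divided by the square root of F. The fit was tested on simulated data with known changes.

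Alternatives were RLE scaling, DESeq2 1.42.0, no filter, each library left out, a replicate block, each line fitted alone, and controls split between level and change. Exact intervals cover counting error only. CAL27 libraries (both hairpins pooled as knockdown) were fitted alone, and leaving out each of them was chosen after seeing the data. Percent values count tested genes.

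Genes were named as follows: EHF; the 8 most positive and 8 most negative interactions past the threshold (average log2 CPM of at least 2, at least 10 counts per library on average in each line, no overlap of groups in the line that changed more); the 5 opposite genes of each orientation and the 5 shared genes with the largest smaller change; 3 genes per line with at most 3 counts in the other; and the extreme members of each list past the threshold. Further list members named were past the interaction threshold and were chosen after their values were seen. The comparison, gene lists and members were chosen with earlier results of these data known. Promoters are RefSeq sequences (GRCh38.p14).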

Additional observations from a re-analysis of the deposited data

Results flagged for a closer look

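These genes were singled out because their change with EHF OE differed between SCC25 and A253 by the test of the difference itself (edgeR's quasi-likelihood test, adjusted p under 0.05 over 15460 genes, where 5.63% passed). Each value is the log2 difference, SCC25 change minus A253 change. EHF differed by -2.05. The largest positive differences were CLU 2.08, FBP1 1.99, MMP13 1.91, CXCL14 1.91, B4GALNT2 1.85, CNGB1 1.84, LOC100507032 1.79 and EDN1 1.64. The largest negative differences were SPP1 -8.41, DHRS9 -5.43, LAPTM5 -3.87, S100A9 -2.53, FRMD3 -2.47, FSIP2 -2.26, LCN2 -2.22 and GNG11 -1.85. The sizes of SPP1, LAPTM5, LCN2 and FSIP2 rest on 3, 2, 15 and 29 counts in all A253 control libraries. Genes that rose in SCC25 and fell in A253 gave NEDD9 1.35, SNORA49 1.31, KRT17 1.13, PRODH 0.95 and COL18A1 0.94. Genes that fell in SCC25 and rose in A253 gave STEAP1 -1.10, MT1X -0.77, POPDC3 -0.80, ATP5G1 -0.67 and DCPS -0.67. 

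Among the extreme members of the gene lists, differences towards SCC25 were ETS2 0.48, KRT1 2.96, DSC3 0.52, COL3A1 0.98, AGR2 0.96, HERC5 0.69, CD74 3.37, CCL28 1.20, FTH1 0.55, SLC2A1 0.33, SEL1L 0.52, ATF3 1.15, LOXL2 0.59, ERRFI1 0.82 and STRA6 3.68. Those towards A253 were ETV4 -0.84, ST14 -0.49, TRIM22 -0.80, ERAP2 -0.55, BIRC3 -0.90, GPX2 -0.59, PKM -0.56, ELOVL6 -0.57, HIST1H3C -0.74, POLE2 -0.54, KIF15 -0.48, CTH -0.63, CA9 -1.48 and MYC -0.57. Of these 56 genes, 39 stayed past the threshold when each library was left out in turn, and the other 17 were AGR2, ATP5G1, CA9, CCL28, COL18A1, COL3A1, CTH, ELOVL6, ERAP2, ERRFI1, FTH1, KIF15, LOXL2, POLE2, SLC2A1, STRA6 and TRIM22. CD74 averaged 2.03 CPM in SCC25 EHF OE, 0.361 CPM in SCC25 control, 0.291 CPM in A253 EHF OE and 0.529 CPM in A253 control (52, 11, 13 and 25 counts in all, in the same order).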

How the results depend on the processing

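No recomputed log2 change or difference of a named gene that had passed the threshold changed sign; the differences of SLC16A12 and NDRG2, near 0 and not past it, did so in some fits without 1 library. DESeq2 called 529 interaction genes, 1144 in SCC25, 958 in A253, 25 opposite and 258 shared genes; RLE scaling called 785 interaction genes and no filter called 955. Each line fitted alone gave 3370 genes in SCC25, against 1872 in the joint fit, and 1156 in A253, against 1487; the joint fit shares 1 estimate of spread. With the level taken from control replicate 1, genes with at least 1 CPM in both controls gave 372 interaction calls, against 830, with 1 control fewer in each line. Leaving out 1 library at a time gave 318 to 936 interaction genes, 599 to 2112 in SCC25, 968 to 1351 in A253, 11 to 51 opposite and 216 to 425 shared genes, and an EHF difference of -2.12 to -1.97. Without any 1 SCC25 library the SCC25 count lay below the A253 count. The median of the ETS factors turned sign with no filter and without SCC25 control replicate 2 or A253 EHF OE replicate 3. Fits without a library hold fewer samples; otherwise the cause was not tested.

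Replicate numbers gave no consistent pairing of the libraries. In A253, deviations of same-numbered EHF OE and control libraries from their group means correlated at -0.412, -0.089 and 0.419 over 11214 genes. A253 EHF OE libraries 1 and 2 correlated best with a control of another number. In SCC25 the correlation was -0.002, which is a single value, because deviations of 2 libraries from their mean mirror each other. A fit with the replicate block called 978 interaction genes (386 towards SCC25, 592 towards A253), among them 38 histone genes, against 24, and 20 of oxidative phosphorylation, against 10. Among the named genes, the interaction was lost for 6 with DESeq2, 1 with RLE scaling, 1 with no filter and 3 with the block. Leaving out 1 of the 2 libraries of an SCC25 group leaves a single one, assumed to vary like the other groups.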

Other observations

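In CAL27, another head and neck carcinoma line, EHF was knocked down rather than raised. This line gave values for the same genes from separate libraries (4 knockdown and 2 control). The knockdown libraries of both hairpins (sh 64 and sh 65) were pooled as 1 group. The CAL27 tests therefore treat a difference between hairpins as spread between libraries. EHF averaged 484 CPM in CAL27 knockdown and 977 CPM in CAL27 control. Over 13629 genes tested there, 517 fell with knockdown (3.79%) and 717 rose (5.26%). The tests there covered 205 genes that rose in SCC25 with an interaction call towards SCC25 and did not pass as rising in A253. Of these, 14 fell with knockdown (6.83%) and 39 rose (19.0%). The reverse set, which rose in A253 and did not pass as rising in SCC25, held 162 genes. Of these, 14 fell (8.64%) and 9 rose (5.56%). Of 283 that rose in both lines, 30 fell (10.6%) and 51 rose (18.0%). Genes that rose in both with an interaction call, such as MMP13, CLU, LAPTM5 and LCN2, are counted only there. Leaving out either CAL27 control replicate was chosen after the data were seen and leaves 1 control library. Both rises and falls were then far fewer, in each of these groups and over all genes. The groups are therefore not compared in those fits.

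Some genes that rose with overexpression in at least 1 line fell with knockdown in CAL27. LAPTM5 averaged 2.96 CPM in knockdown and 12.2 CPM in control (log2 change -2.02, adjusted p = 4.50e-05). CTSS fell by 1.20 on the log2 scale (adjusted p = 0.00328), MMP7 by 1.43 (adjusted p = 0.00602), PDZK1IP1 by 1.65 (adjusted p = 0.00286) and EDN1 by 1.27 (adjusted p = 0.00633). Other genes rose both with overexpression in SCC25 and with knockdown in CAL27: CLU by 0.66 (adjusted p = 0.0109), KRT17 by 0.47 (adjusted p = 0.0232) and PRODH by 1.48 (adjusted p = 0.00587) in CAL27. MMP13 averaged 116 CPM in CAL27 knockdown and 27.3 CPM in CAL27 control (adjusted p = 0.0584), and S100A9 averaged 277 CPM and 122 CPM in the same order (adjusted p = 0.247), neither past the threshold.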
